A study of Homo sapiens with 18 samples.

Results

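Fatty acid oxidation genes, the PPAR receptors and known PPAR target genes were followed in A549 cells given sodium propionate (SP), 32 genes in all of the 61541 genes in the count tables. They were chosen by name, and the row of each was found through the Ensembl identifier that the GENCODE annotation of GRCh38 pairs with its symbol. All 32 passed the filter on low counts in both tables. A549 is a human lung adenocarcinoma line, wild type per the labels, and was kept in high glucose DMEM with 10% fetal bovine serum. RNA-seq libraries were made in triplicate from 6 groups, 18 libraries in all. Untreated controls were collected at 24 h and at 3 days, and cells given 5 mM SP after 3 or 24 h and after 3 or 12 days. The first count table holds the control (3 days), SP 3 days and SP 12 days, and the second the control (24 h), SP 3 h and SP 24 h. The study asked how SP acts on epithelial to mesenchymal transition. It used modulators of PPARγ in other experiments, so PPARG, the gene of that receptor, bears on one of its questions. It reports that the rise of E-cadherin protein with SP was neither blocked nor reduced by them. SP 3 h was set against the control (24 h) and SP 12 days against the control (3 days), so that time in culture and SP cannot be told apart in these 2 comparisons. The comparisons within a table share their control libraries, so their values stand side by side and are not independent. The labels do not say whether the 3 libraries of a group came from separate cultures. The study calls those of the second table biological replicates. P-values measure only the spread between these libraries.

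Long-chain fatty acids enter mitochondria as carnitine esters, through CPT1A on the outer membrane, the carrier SLC25A20 and CPT2 on the inner membrane. Acyl-CoA dehydrogenases, hydratases, hydroxyacyl-CoA dehydrogenases and thiolases then shorten the chain in rounds, and the electron transfer flavoprotein passes electrons to the respiratory chain. Peroxisomes oxidise very long and branched chains. PPARα, PPARδ and PPARγ are nuclear receptors that bind fatty acids, pair with RXR on DNA and switch on many genes of this pathway. Propionate itself is a short-chain fatty acid made by gut bacteria, and it does not need the carnitine shuttle to enter mitochondria.

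RefSeq promoter windows (GRCh38.p14, 300 bases that end 50 bases after a start site) were found for 27 of the 32 genes, 43 windows in all, and not for ECH1, DECR1, ACAA1, ACOX2 and ETFDH. The windows below are shown because PPARA and ANGPTL4 were higher in all 4 comparisons with control, because PDK4 was higher at 24 h, and because the window of HADHB overlaps that of HADHA. All are written 5′ to 3′ on the strand of the gene, with GGGCGG, or CCGCCC where the motif lies on the other strand, in capitals. This motif is the GC box bound by SP1-family factors.
PPARA, chr22:46150276-46150575, plus strand: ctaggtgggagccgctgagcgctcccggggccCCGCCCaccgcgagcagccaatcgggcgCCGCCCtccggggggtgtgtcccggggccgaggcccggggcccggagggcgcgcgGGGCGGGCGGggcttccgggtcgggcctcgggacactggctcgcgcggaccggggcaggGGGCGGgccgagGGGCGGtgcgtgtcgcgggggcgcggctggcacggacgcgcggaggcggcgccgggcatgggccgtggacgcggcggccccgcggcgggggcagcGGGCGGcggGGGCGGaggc
ANGPTL4, chr19:8363905-8364204, plus strand: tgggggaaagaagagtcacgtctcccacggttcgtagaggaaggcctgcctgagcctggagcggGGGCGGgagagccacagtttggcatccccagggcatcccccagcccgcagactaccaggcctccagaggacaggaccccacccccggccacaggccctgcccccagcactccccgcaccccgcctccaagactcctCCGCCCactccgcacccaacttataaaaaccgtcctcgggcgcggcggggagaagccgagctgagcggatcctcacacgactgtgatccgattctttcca
PDK4, chr7:95596467-95596766, minus strand: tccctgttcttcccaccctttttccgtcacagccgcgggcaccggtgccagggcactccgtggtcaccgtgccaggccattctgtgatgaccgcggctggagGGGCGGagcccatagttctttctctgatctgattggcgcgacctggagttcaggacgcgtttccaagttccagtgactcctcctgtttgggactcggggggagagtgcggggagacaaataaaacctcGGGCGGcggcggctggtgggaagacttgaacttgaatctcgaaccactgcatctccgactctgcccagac
HADHB, chr2:26244689-26244988, plus strand: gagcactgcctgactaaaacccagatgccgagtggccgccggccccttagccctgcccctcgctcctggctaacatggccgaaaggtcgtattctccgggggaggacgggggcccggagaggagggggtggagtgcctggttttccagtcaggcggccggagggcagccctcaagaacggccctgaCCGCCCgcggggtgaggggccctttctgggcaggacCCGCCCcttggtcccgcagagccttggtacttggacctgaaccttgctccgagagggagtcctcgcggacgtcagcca
PPARA held 8 GC boxes in this window, some of them overlapping, and the other three windows held 2 each. The window of HADHA (chr2:26244583-26244882, minus strand) shares 194 bases with that of HADHB, and the 2 start sites lie 307 bases apart on opposite strands. Both strands were searched for each motif. GGGCGG was found in 28 of the 43 windows (65.1%) and in 45.0% of all 35116 RefSeq windows. CCAAT was found in 20.9% of the windows of these genes against 34.6% of all, and the E-box CACGTG in 6.98% against 7.26%. The hexamer AGGTCA, the core of nuclear receptor sites, was found in 3 windows (6.98%), all of PPARG, and in 13.8% of all windows. The PPAR element AGGTCANAGGTCA, which contains that hexamer in 2 copies, was in none of the 43 windows and in 0.0228% of all. These counts describe letters in short windows and say nothing of binding, which also occurs at imperfect and distant sites.

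Library totals were 15425281 to 21992046 counted reads in the first table and 14187401 to 43765330 in the second, where replicates varied more (biological coefficient of variation 0.199 against 0.0996). The 6 epithelial markers were EPCAM, KRT7, KRT8, KRT18, KRT19 and CDH1. They summed to 10530 to 11460 CPM in the control (24 h), 9859 to 11610 at SP 3 h and 15440 to 16520 at SP 24 h. In the first table the sum was 7646 to 9623 CPM in the control, 13470 to 14490 at SP 3 days and 12720 to 18070 at SP 12 days. KRT7, KRT8 and KRT18 made up most of it, with means of 3331, 4450 and 2746 CPM in the control (24 h). KRT19, CDH1 and EPCAM were there at 332, 34.7 and 6.08. At SP 24 h the mean of KRT7 was lower (3037), and those of KRT8, KRT18, KRT19, CDH1 and EPCAM were higher. The 3 fibroblast markers summed to 5.61 to 21.5 CPM in the control (24 h), 17.9 to 37.8 at SP 3 h and 61.8 to 89.2 at SP 24 h, and to 13.2 to 13.6 in the control (3 days), 56.6 to 67.3 at SP 3 days and 29.0 to 51.6 at SP 12 days. COL1A1 made up nearly all of the fibroblast sum, with PDGFRB at most at 0.688 CPM and DCN at 0 in every library of the second table. The part of these levels in the results for the fatty acid oxidation genes was not tested. Over all libraries the 5 alveolar type II markers summed to 0.140 to 3.54 CPM, so that those markers were nearly absent, the 3 leukocyte markers to at most 0.291, the 2 endothelial markers to at most 2.76, the 4 adipocyte markers to at most 0.430 and the 3 hepatocyte markers to at most 0.532.

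At 24 h of SP, 9 of the 32 genes were higher and 2 lower at an adjusted p under 0.05 (edgeR). That is 28.1% and 6.25% of them, against 16.8% and 12% of the 17377 genes tested. At 3 days 13 genes were higher and 1 lower (40.6% and 3.12%), against 25.2% and 23.3% of all 17775 genes tested. After a correction that removes trends with GC content and transcript length from the libraries, the split at 3 days was 14 higher and 3 lower. That is 43.8% and 9.38%, against 27.0% and 25.1% of all genes tested. In these bulk samples, fewer cells of a type and less RNA per cell cannot be told apart. At 12 days 10 were higher and 6 lower (31.2% and 18.8%), close to the background of 26.4% and 23.4%. At 3 h 3 were higher, which is 9.38% against a background of 7.39%. None of the 32 was lower at 3 h by edgeR, against 4.11% of all genes tested, and 5 (15.6%) had an unadjusted p under 0.05 in either direction, against 25.1% of all genes. DESeq2 gave 1 lower gene, ACOT2 (3.12%, against 6.49% of all genes). The median log2 fold change of the 32 genes was −0.04 at 3 h, 0.12 at 24 h, 0.18 at 3 days and 0.11 at 12 days, against 0.00, −0.01, −0.02 and 0.00 over all genes tested. PPARA and ANGPTL4 were higher in all 4 comparisons. Another 3 genes, ECH1, ACOX2 and PPARGC1A, were higher in some and lower in others. Altogether 25 genes passed in at least 1 comparison and 7 in none. Those 7 were ACADM, ACADS, HSD17B10, ACAA2, DECR1, ACAA1 and PLIN2. The share of all genes that passed in at least 1 comparison was not counted. At 12 days alone, 26.4% of all genes passed as higher and 23.4% as lower. The study's thresholds (adjusted p under 0.0001 and 2-fold), used there with DESeq2, were applied here to the edgeR fit. By them, PPARA and ANGPTL4 were higher at 3 days and PPARA, ANGPTL4 and OXCT1 at 12 days. Of all genes tested, 6.58% and 6.88% were higher by these thresholds at 3 and 12 days. No member reached them at 24 h by edgeR, where 0.622% of all genes (108 of 17377) were higher by them. With DESeq2, 997 of the 17377 genes were higher by these thresholds at 24 h. The 32 genes were not counted by them in the DESeq2 fit.

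**Figure D1:**
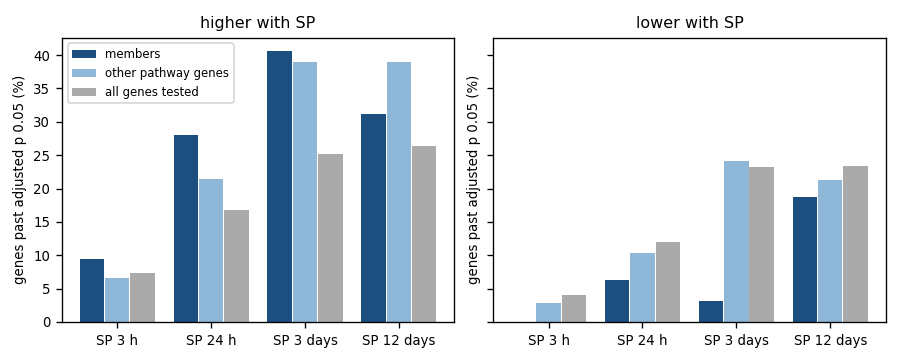
Bars give the percent of the 32 genes, of the other pathway genes and of all genes tested that were higher (left) or lower (right) with SP at an adjusted p under 0.05, in the 4 comparisons with control. For the 32 genes the bars for higher genes reach 28.1% at 24 h and 40.6% at 3 days, and the bar for lower genes at 3 days 3.12%.

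**Figure D2:**
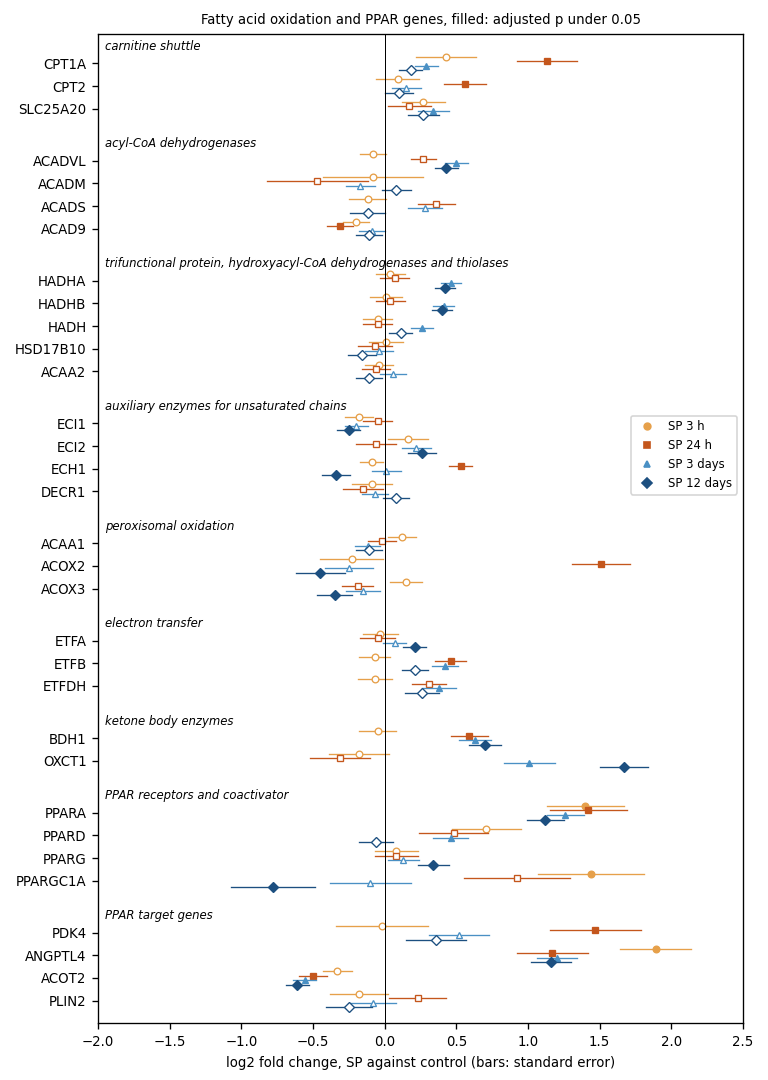
Each row is a gene, grouped by role, and each symbol its log2 fold change in 1 of the 4 comparisons with control, with the standard error as a bar and filled where the adjusted p was under 0.05. PPARA and ANGPTL4 are the rows with 4 filled symbols, all to the right of 0, while OXCT1 has filled symbols at 3 and 12 days only.

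Per kilobase of the canonical transcript, the most abundant members in both controls were ECH1, at 158.6 ± 7.27 CPM (counts scaled to the TMM-adjusted library size) per kb in the control (24 h) and 214 ± 26.2 in the control (3 days), and ACADVL, at 152 ± 8.79 and 179 ± 12.5 (SD, n = 3). HSD17B10, ETFA and ETFB filled the next 3 ranks in either control. PPARGC1A was at the bottom of the order with 0.0924 ± 0.0367 and 0.462 ± 0.121. PPARG, at 26.6 ± 5.35 and 21.2 ± 1.54, was the most abundant receptor gene per kb, above PPARD (3.57 ± 1.09 and 6.41 ± 1.06) and PPARA (0.749 ± 0.241 and 1.25 ± 0.130). All 3 receptor genes were detected, and some enzymes (ACOX2, OXCT1 and BDH1) lay below PPARD in both controls.

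PPARA (ENSG00000186951, chr22:46150521-46243755), which encodes PPARα, the main receptor driving fatty acid oxidation in liver, was higher with SP at every time. The control (24 h) libraries held 4.92, 9.72 and 8.10 CPM, the SP 3 h libraries 18.3, 25.9 and 15.7, and the SP 24 h libraries 17.2, 23.6 and 20.1. The control (3 days) libraries held 13.1, 11.2 and 13.7 CPM, the SP 3 days libraries 30.7, 29.2 and 30.8, and the SP 12 days libraries 25.0, 23.7 and 33.5. Every SP library lay above every control library of its table. The log2 fold change was 1.40 ± 0.27 (SE) at 3 h (adjusted p = 0.0101, edgeR), 1.42 ± 0.27 at 24 h (0.00425), 1.26 ± 0.13 at 3 days (1.18e-06) and 1.12 ± 0.13 at 12 days (3.56e-06), a rise of 2.17- to 2.68-fold. Without any 1 library the value stayed between 1.15 and 1.60 at 3 h and between 1.17 and 1.62 at 24 h, and the adjusted p did not exceed 0.0409 and 0.0217. SP 24 h and SP 3 h differed by 0.02 ± 0.26 (adjusted p = 0.952), and the 2 tables' effects by 0.13 ± 0.31 between 24 h and 3 days (adjusted p = 0.846).
PPARG, the receptor of fat cell differentiation that is also expressed in lung epithelium, passed only at 12 days, at 0.34 ± 0.11 (adjusted p = 0.021, edgeR). Its libraries held 37.6, 35.0 and 40.5 CPM in the control (3 days) and 49.3, 54.5 and 39.4 at 12 days, where SP 12 days replicate 3 lay inside the control range. The call at 12 days was lost without SP 12 days replicate 1 or 2 or control (3 days) replicate 1 or 2 (adjusted p up to 0.133). At 3 h, 24 h and 3 days its log2 fold changes were 0.08 ± 0.15, 0.08 ± 0.15 and 0.13 ± 0.11. With the GC content and length correction the 24 h value was 0.39 (adjusted p = 0.0245, edgeR), and 0.40 (0.0175) with the block added.
PPARD, the broadly expressed receptor, was higher at 3 days, at 31.5, 30.8 and 36.2 CPM against 22.3, 21.1 and 28.4 in the control. Its log2 fold change there was 0.46 ± 0.12 (adjusted p = 0.00545, edgeR), and 0.24 (adjusted p = 0.0532) after the GC content and length correction. At 12 days PPARD was at 23.3, 20.5 and 25.2 CPM, overlapping the control, and 0.51 ± 0.12 lower than at 3 days on the log2 scale (adjusted p = 0.0159), a call lost without SP 3 days replicate 3 or SP 12 days replicate 1 or 2 (adjusted p up to 0.0871). At 3 h and 24 h the values were 0.71 ± 0.24 (adjusted p = 0.101) and 0.48 ± 0.24 (0.167). In a fit of the 2 groups alone with the replicate number as a block, the 24 h value was 0.50 (adjusted p = 0.0382). With the block in the fit of all libraries of the table it did not pass. Without control (24 h) replicate 3 the 3 h and 24 h values were 0.96 (adjusted p = 0.0264) and 0.73 (0.0339).
PPARGC1A, which encodes the coactivator PGC-1α, was near the lower limit of detection, with 37 reads over the 3 control (24 h) libraries and 109 over the 3 SP 3 h libraries. The control (24 h) libraries held 0.477, 0.845 and 0.421 CPM, the SP 3 h libraries 1.62, 1.95 and 1.06 and the SP 24 h libraries 1.05, 1.37 and 0.777. The SP 3 h libraries lay above all controls, while those of SP 24 h overlapped them. It was higher at 3 h by 1.44 ± 0.37 (adjusted p = 0.0361, edgeR), a call lost without control (24 h) replicate 1 or 3, SP 3 h replicate 1 or 2 or SP 24 h replicate 1 (adjusted p up to 0.157). At 24 h the value was 0.92 ± 0.37 (adjusted p = 0.093). With the replicate block it was 0.87 (adjusted p = 0.0254), and 0.86 (0.0477) in a fit of the 2 groups alone with the block. The control (3 days) libraries held 2.30, 3.76 and 2.66 CPM, SP 3 days 2.74, 2.26 and 3.05, and SP 12 days 1.075, 1.297 and 2.53. The 12 days value was −0.78 ± 0.29 (adjusted p = 0.0372), with SP 12 days replicate 3 inside the control range, and the call was lost when control replicate 2 or 3 or SP 12 days replicate 1 or 2 was left out (adjusted p as high as 0.164).

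ANGPTL4 (ENSG00000167772, chr19:8363289-8374370), a secreted inhibitor of lipoprotein lipase and a classical PPAR target, had its highest fold change at 3 h. Its control (24 h) libraries held 6.35, 4.33 and 9.85 CPM, the SP 3 h libraries 26.0, 24.4 and 26.2, and the SP 24 h libraries 13.9, 15.4 and 17.3. In the first table the control held 4.97, 4.89 and 5.32 CPM, SP 3 days 10.8, 13.3 and 10.7, and SP 12 days 11.3, 10.3 and 12.4. No SP library overlapped a control of its table, and the SP 3 h libraries lay above those of SP 24 h. The log2 fold changes were 1.89 ± 0.25 at 3 h (adjusted p = 0.00213, edgeR), 1.17 ± 0.25 at 24 h (0.00755), 1.20 ± 0.14 at 3 days (3.1e-06) and 1.16 ± 0.14 at 12 days (3.64e-06). The difference between SP 24 h and SP 3 h, −0.72 ± 0.24, did not pass (adjusted p = 0.0638), although it did with DESeq2 (−0.70, 0.0335), in a fit of the 2 groups alone (−0.72, 0.00524) and without control (24 h) replicate 2 or 3 (−0.72 in both, adjusted p = 0.0253 and 0.00925).
PDK4 (ENSG00000004799, chr7:95583499-95596516), the kinase that shuts off pyruvate dehydrogenase when fatty acids are burned, did not pass at 3 h and was higher at 24 h. Its control (24 h) libraries held 26.6, 31.2 and 14.5 CPM, the SP 3 h libraries 23.1, 29.97 and 17.97, and the SP 24 h libraries 74.7, 79.8 and 45.7. The SP 3 h libraries lay within the control range and the SP 24 h libraries above it. The log2 fold change was −0.02 ± 0.32 at 3 h (adjusted p = 0.983, edgeR) and 1.47 ± 0.32 at 24 h (adjusted p = 0.00941). The control (3 days) libraries were higher throughout, at 155, 164 and 141 CPM, against 227, 231 and 202 at SP 3 days and 167, 147 and 276 at SP 12 days. At 3 days the SP libraries lay above the controls, yet the value of 0.52 ± 0.21 did not pass in the fit of all 9 libraries (adjusted p = 0.0682), whose spread includes that of SP 12 days. In a fit of the 2 groups alone it was 0.52 (adjusted p = 9.59e-06), and without SP 12 days replicate 3, the library at 276 CPM, 0.51 (adjusted p = 2.26e-06). Without SP 12 days replicate 2 it was also 0.51 (adjusted p = 0.016). At 12 days the value was 0.36 ± 0.21 (adjusted p = 0.188), 0.51 without SP 12 days replicate 2 (0.0264) and 0.01 without replicate 3 (0.907).
ACOT2 (ENSG00000119673, chr14:73567620-73575658), a mitochondrial thioesterase that splits acyl-CoA, was the target gene that fell. The control (24 h) libraries held 55.8, 49.8 and 53.3 CPM, the SP 3 h libraries 43.7, 38.9 and 43.4, and the SP 24 h libraries 36.9, 37.3 and 37.9. In the first table the control held 62.5, 56.8 and 64.4 CPM, SP 3 days 40.8, 43.8 and 40.1, and SP 12 days 38.95, 39.1 and 42.5. All SP libraries lay below the controls of their table. Its log2 fold change was −0.50 ± 0.10 at 24 h (adjusted p = 0.00471, edgeR), −0.56 ± 0.08 at 3 days (5.32e-05) and −0.61 ± 0.08 at 12 days (2.18e-05), and −0.33 ± 0.10 at 3 h (0.0552). ACOT1 is a near-identical paralog, and because the treatment of reads that map to several places is not given in the sources used here, the value may hold reads of both.
PLIN2, the coat protein of lipid droplets, passed in none of the comparisons, with log2 fold changes between −0.25 and 0.23 and CPM between 31.9 and 60.7 over the 18 libraries. Its 12 days value of −0.25 ± 0.16 was −0.40 (adjusted p = 0.0429) without SP 12 days replicate 2. At 24 h the value of 0.23 ± 0.20 was 0.38 (0.0172) with the GC content and length correction and the block.

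**Figure D3:**
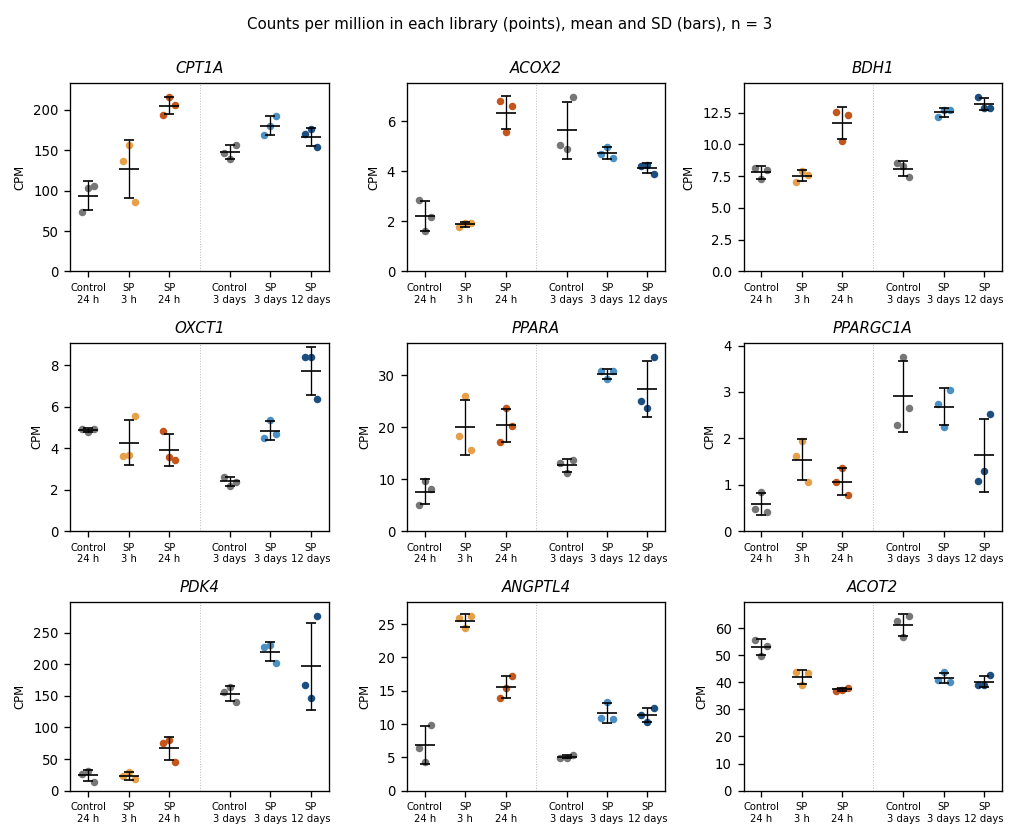
Each panel plots the CPM of 1 gene in every library (points) with the group mean and SD (n = 3), the second table left of the dotted line and the first table right of it. PPARA and ANGPTL4 show SP points above the controls in both tables, ACOT2 below them, and ACOX2 and PDK4 a step at SP 24 h.

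In the carnitine shuttle, CPT1A (ENSG00000110090, chr11:68754620-68844410), the rate-controlling step of long-chain entry, rose 2.18-fold at 24 h. Its libraries held 73.5, 103 and 105.2 CPM in the control (24 h), 137, 157 and 86.4 at SP 3 h and 194, 216 and 206 at SP 24 h. The SP 3 h libraries straddled the controls and the SP 24 h libraries lay above all others of the table. The log2 fold change was 0.43 ± 0.21 at 3 h (adjusted p = 0.246, edgeR), 1.13 ± 0.21 at 24 h (0.00442), 0.29 ± 0.08 at 3 days (0.00886) and 0.18 ± 0.08 at 12 days (0.0873). Without SP 3 h replicate 3 the 3 h value was 0.64 (adjusted p = 0.0392). In the first table the control held 147, 139 and 157 CPM, SP 3 days 169, 179.7 and 193 and SP 12 days 170.1, 176 and 155, so that SP 12 days overlapped the control. Without SP 12 days replicate 3, the overlapping library, the 12 days value was 0.21 (adjusted p = 0.0157).
CPT2 rose at 24 h by 0.56 ± 0.15 (adjusted p = 0.0187), with 17.6, 19.6 and 16.7 CPM against 11.0, 12.9 and 12.6, and lost the call without control (24 h) replicate 1 or SP 24 h replicate 2 (adjusted p up to 0.0813). Exons of CPT2 share 1250 bases with other genes on the opposite strand. SLC25A20, the carnitine carrier, rose at 3 days by 0.34 ± 0.11 (adjusted p = 0.0204), a call that did not hold when control (3 days) replicate 1 or 2 or SP 3 days replicate 3 was left out (adjusted p as high as 0.111). Its 12 days value of 0.27 ± 0.11 (adjusted p = 0.0524) was 0.34 (0.0333) when control (3 days) replicate 3 was left out and 0.30 (0.027) when SP 12 days replicate 3 was.

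Among the acyl-CoA dehydrogenases, ACADVL, which starts the oxidation of the longest chains, rose at 3 and 12 days. Its libraries held 398, 361 and 414 CPM in the control (3 days), 548, 563 and 550.2 at SP 3 days and 531, 511 and 543 at SP 12 days, with no overlap. The log2 fold changes were 0.50 ± 0.08 (adjusted p = 7.56e-05, edgeR) and 0.43 ± 0.08 (0.000276). At 24 h ACADVL was at 405, 374 and 423 CPM against 341, 311 and 347, also without overlap, and its value of 0.27 ± 0.09 narrowly missed the threshold (adjusted p = 0.0537), which it passed with DESeq2 (0.25, 0.0308). ACADM and ACADS, which act on medium and short chains, passed in no comparison with control. For ACADM, the 24 h value of −0.47 ± 0.35 was −0.77 (adjusted p = 0.0477) without control (24 h) replicate 3, and the 3 days value of −0.17 ± 0.10 was −0.26 (0.0396) without control (3 days) replicate 3. The 12 days value of ACADS, −0.12 ± 0.12, was −0.32 (adjusted p = 0.00453) without SP 12 days replicate 3 and −0.29 (0.0237) with the GC content and length correction. At 3 days its value of 0.28 ± 0.12 (adjusted p = 0.0771) was 0.27 without SP 12 days replicate 2 or 3 (0.0364 and 0.00514). For ACADS the 24 h value of 0.36 ± 0.13 (adjusted p = 0.0655) was 0.36 with the replicate block (0.0397). In a fit of the 2 groups alone with the block it was 0.34 (adjusted p = 0.0484). ACAD9, which also helps to assemble respiratory complex I, was lower at 24 h, at −0.31 ± 0.09 (adjusted p = 0.0348). That call was lost without control (24 h) replicate 1, SP 3 h replicate 1 or 2 or any SP 24 h replicate (adjusted p up to 0.127). At 3 days ACAD9 was at −0.09 ± 0.09, and at −0.25 (adjusted p = 0.0114) with the GC content and length correction. ACADM shares 1511 bases of exon with other genes and ACAD9 832.
HADHA and HADHB, the alpha and beta subunits of the mitochondrial trifunctional protein, whose promoter windows overlap on opposite strands, had similar values at each time. Libraries of the first table gave HADHA 213, 203 and 216 CPM in the control, 279.7, 288 and 300.5 at SP 3 days and 288, 279.8 and 278 at SP 12 days. HADHB held 121, 121 and 130.4 CPM in the control, 161, 170.1 and 165 at SP 3 days and 165, 158 and 169 at SP 12 days. For both subunits all SP libraries of the first table lay above all controls. HADHA rose by 0.46 ± 0.07 at 3 days (adjusted p = 8.87e-05, edgeR) and 0.42 ± 0.07 at 12 days (0.000189), and HADHB by 0.41 ± 0.07 (0.000228) and 0.40 ± 0.07 (0.000289). In the second table neither passed, with HADHA at 0.04 ± 0.10 at 3 h and 0.07 ± 0.10 at 24 h and HADHB at 0.01 ± 0.11 and 0.04 ± 0.10, and the groups overlapped. With the GC content and length correction HADHB was 0.27 at 24 h (adjusted p = 0.0373). The effect at 24 h minus that at 3 days was −0.42 ± 0.13 for HADHA (adjusted p = 0.0553) and −0.41 ± 0.13 for HADHB (0.0743), and DESeq2 gave −0.43 (0.0114) and −0.42 (0.0235). HADHA also passed without control (24 h) replicate 2, SP 12 days replicate 3 or SP 3 h replicate 3 (−0.47 to −0.42, adjusted p = 0.0422 to 0.0488). The annotation lists 2 pseudogenes of HADHA and 1 of HADHB.
HADH, the dehydrogenase for medium and short hydroxyacyl chains, rose at 3 days by 0.26 ± 0.08 (adjusted p = 0.0108), a call that did not hold when control (3 days) replicate 1 or SP 3 days replicate 2 was left out (adjusted p as high as 0.0645). HSD17B10, which also takes part in isoleucine breakdown, and the thiolase ACAA2 passed in no comparison, with log2 fold changes between −0.16 and 0.06.

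Among the enzymes for unsaturated chains, ECH1, a dienoyl-CoA isomerase, changed in opposite directions at 24 h and 12 days. Its control (24 h) libraries held 200.0, 188 and 183 CPM, those of SP 3 h 174, 184 and 178, and those of SP 24 h 279, 269 and 277. The SP 24 h libraries lay above all the others of the table, a rise of 0.53 ± 0.08 (adjusted p = 0.00162, edgeR). In the first table the control held 245, 232 and 292 CPM, SP 3 days 238, 270.0 and 265, and SP 12 days 205, 216 and 188. Here SP 3 days overlapped the control and SP 12 days lay below it, with values of 0.01 ± 0.10 (adjusted p = 0.951) and −0.34 ± 0.10 (0.00789). Exons of ECH1 share 402 bases with a gene on the same strand. ECI1, an enoyl-CoA isomerase, was lower at 12 days at −0.25 ± 0.08 (adjusted p = 0.0223), and its paralog ECI2 higher at 0.26 ± 0.10 (0.034). The ECI1 call was lost without control (3 days) replicate 1 (adjusted p = 0.0773), and that of ECI2 without any of 7 libraries (adjusted p up to 0.199), all except control (3 days) replicate 3 and SP 12 days replicate 3. With the GC content and length correction, ECI1 was at −0.54 at 24 h (adjusted p = 0.0122), against −0.05 ± 0.10 without it, and at −0.49 at 3 days (0.000121), against −0.20 ± 0.08. At 3 days ECI1 also passed without SP 3 days replicate 2 (−0.27, 0.0311) or SP 12 days replicate 3 (−0.21, 0.0184), and ECI2 without the latter (0.21, 0.0179). The reductase DECR1 passed in no comparison, with values between −0.15 and 0.08.
Among the peroxisomal enzymes, ACOX2 (ENSG00000168306, chr3:58505136-58537283), the oxidase for branched chains and bile acid intermediates, had the highest log2 fold change of the 32 genes at 24 h, next to PDK4. Its control (24 h) libraries held 2.86, 1.64 and 2.17 CPM, the SP 3 h libraries 1.76, 1.95 and 1.96, and the SP 24 h libraries 6.84, 5.59 and 6.62. The SP 24 h libraries lay above all the others of the table, while SP 3 h lay within the control range. The log2 fold change was −0.23 ± 0.22 at 3 h (adjusted p = 0.593, edgeR) and 1.51 ± 0.20 at 24 h (0.000806), and between 1.33 and 1.69 at 24 h without any 1 library. The first table showed no such rise, with 5.07, 4.89 and 6.97 CPM in the control, 4.69, 5.00 and 4.55 at SP 3 days and 4.24, 4.24 and 3.90 at SP 12 days. Its values there were −0.25 ± 0.17 at 3 days (adjusted p = 0.237) and −0.45 ± 0.17 at 12 days (0.0341), the latter lost with DESeq2 (adjusted p = 0.0649) and when either control (3 days) replicate 3 (0.196) or SP 12 days replicate 1 (0.0504) was left out. ACOX3, which acts on similar branched chains, was lower at 12 days at −0.35 ± 0.12 (adjusted p = 0.0218), lost without control (3 days) replicate 3 (0.0893). Its 24 h value of −0.19 ± 0.11 was −0.33 (adjusted p = 0.0295) with the GC content and length correction. The thiolase ACAA1 passed in no comparison, with values between −0.12 and 0.12.
In electron transfer, ETFB, the beta subunit of the flavoprotein, rose at 24 h and at 3 days. It held 128, 126 and 132 CPM at SP 24 h against 108, 86.1 and 86.7, and 130.0, 136 and 151 at SP 3 days against 105.3, 92.4 and 113, without overlap. The values were 0.46 ± 0.11 (adjusted p = 0.0127, edgeR) and 0.42 ± 0.09 (0.00114), the former at an adjusted p of 0.052 without SP 24 h replicate 3. The alpha subunit ETFA passed only at 12 days, at 0.21 ± 0.08 (adjusted p = 0.0396), and lost the call without any of 8 libraries, all but SP 12 days replicate 3 (adjusted p up to 0.237). ETFDH, which hands the electrons to ubiquinone, rose at 3 days by 0.38 ± 0.12 (adjusted p = 0.0121), lost when control (3 days) replicate 2 or SP 3 days replicate 1 or 2 was left out (adjusted p as high as 0.0636). At 24 h ETFDH was at 0.31 ± 0.12 (adjusted p = 0.0734), and at 0.51 (0.00417) with the GC content and length correction. The 12 days value of ETFDH, 0.26 ± 0.12 (adjusted p = 0.0785), was 0.34 (0.0494) when control (3 days) replicate 1 was left out and 0.30 (0.0305) when SP 12 days replicate 3 was, and that of ETFB, 0.21 ± 0.09 (0.0702), without control (3 days) replicate 3 (0.27, 0.0324). ETFDH shares 1905 bases of exon with neighbouring genes and ETFB 415.

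**Figure D4:**
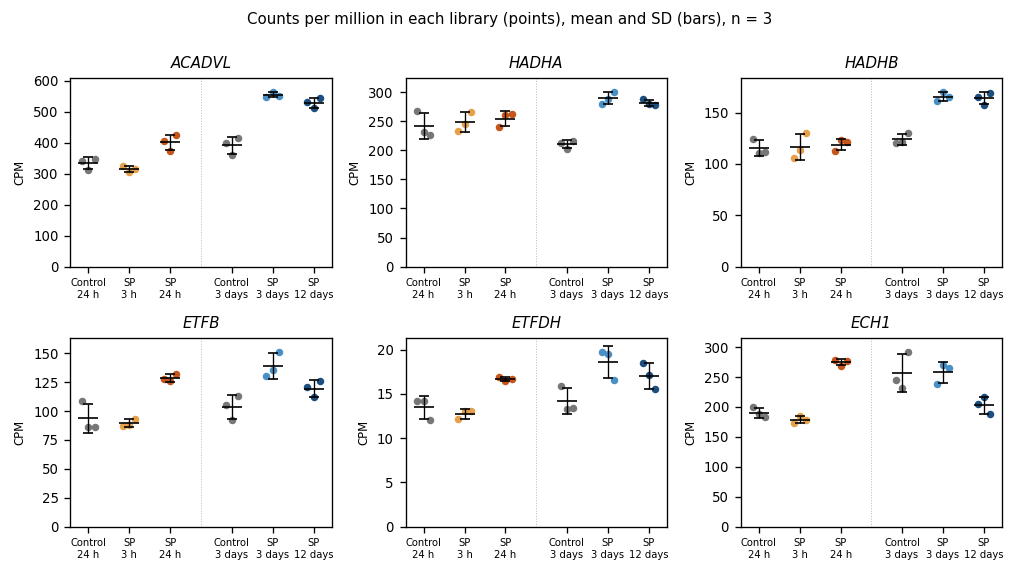
Each panel plots the CPM of 1 mitochondrial enzyme gene in every library (points) with the group mean and SD (n = 3), the second table left of the dotted line and the first table right of it. ACADVL, HADHA and HADHB show SP points above the control at 3 and 12 days, and ECH1 shows a step up at SP 24 h and lower points at SP 12 days.

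Both ketone body enzymes rose in the first table. BDH1 (ENSG00000161267, chr3:197509783-197573323), which interconverts acetoacetate and hydroxybutyrate, held 8.15, 7.24 and 7.99 CPM in the control (24 h), 7.05, 7.91 and 7.62 at SP 3 h, and 12.6, 10.3 and 12.3 at SP 24 h. In the first table it held 8.56, 8.27 and 7.45 CPM in the control, 12.1, 12.7 and 12.7 at SP 3 days, and 13.7, 12.9 and 12.9 at SP 12 days. From 24 h on all SP libraries lay above the controls, while SP 3 h overlapped them. The log2 fold changes were −0.05 ± 0.13 at 3 h (adjusted p = 0.877, edgeR), 0.59 ± 0.13 at 24 h (0.0101), 0.63 ± 0.11 at 3 days (0.000254) and 0.70 ± 0.11 at 12 days (8.42e-05). After the GC content and length correction the 24 h value was 0.39 (adjusted p = 0.0808).
OXCT1 (ENSG00000083720, chr5:41730065-41870425), the mitochondrial transferase that lets cells use ketone bodies, rose in the first table and not in the second. The control (3 days) libraries held 2.63, 2.19 and 2.36 CPM, SP 3 days 4.51, 5.36 and 4.67, and SP 12 days 8.41, 8.38 and 6.38. The 3 groups did not overlap, and SP 12 days replicate 3 was the lowest of its group. The rise was 1.01 ± 0.18 at 3 days (adjusted p = 0.000268, edgeR) and 1.67 ± 0.17 at 12 days (9.87e-07), a fold change of 2.01 and 3.19. In the second table the control held 4.92, 4.75 and 4.91 CPM, SP 3 h 3.60, 3.66 and 5.54, and SP 24 h 4.82, 3.56 and 3.41. These groups overlapped, with values of −0.18 ± 0.21 at 3 h (adjusted p = 0.667) and −0.31 ± 0.21 at 24 h (0.285). Exons of OXCT1 share 135 bases with the antisense gene OXCT1-AS1, whose reads cannot be told apart without strand.

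Direct tests between SP times of the same table compared levels in treated cells. Controls were collected at 24 h and 3 days only, so time in culture and time with SP cannot be told apart in them. From 3 h to 24 h of SP, 10 of the 32 genes were higher, 31.2% against 11.7% of all genes tested. None was lower by edgeR, against 8.4% of all genes. At an unadjusted p under 0.05 in either direction there were 12 (37.5%, against 34.5% of all genes). DESeq2 gave 2 lower (6.25%, against 10.4% of all genes). The GC content and length correction gave 3 lower beside 8 higher (9.38% and 25.0%), against 12.4% and 13.7% of all genes. The differences were 1.74 ± 0.21 for ACOX2 (adjusted p = 0.00104, edgeR), 1.49 ± 0.32 for PDK4 (0.013), 0.63 ± 0.13 for BDH1 (0.0106), 0.62 ± 0.08 for ECH1 (0.00157) and 0.52 ± 0.11 for ETFB (0.0103). CPT1A, CPT2, ACADS, ACADVL and ETFDH also passed, at 0.70, 0.48, 0.47, 0.35 and 0.38, and each lost the call without at least 1 library, as did PDK4 without SP 3 h replicate 3 or SP 24 h replicate 2 (adjusted p up to 0.0533). With the GC content and length correction ACADS was at 0.14 (adjusted p = 0.4), ACADVL at 0.13 (0.441) and PPARD at −0.45 (0.0374), against −0.23 ± 0.24 for PPARD without it. ACOX3, at −0.34 ± 0.11 (adjusted p = 0.0604), passed without control (24 h) replicate 3 (−0.35, 0.0433) and with that correction (−0.46, 0.00746). The number of higher genes fell to 4 without SP 3 h replicate 3, to 5 without SP 3 h replicate 1 or SP 24 h replicate 2 or 3, and to 6 without SP 24 h replicate 1. Over all genes the higher share fell in the same fits from 11.7% to between 6.56% and 8.09%. From 3 to 12 days 1 gene was higher, OXCT1 (0.67 ± 0.16, adjusted p = 0.0179), and 2 were lower, PPARD and ECH1 (−0.35 ± 0.10, adjusted p = 0.0366), that is 3.12% and 6.25% against 4.46% and 3.65% of all genes tested. Without SP 12 days replicate 3, 4 genes were higher and 7 lower (12.5% and 21.9%), and the shares over all genes were 13.6% and 14.5%. The lower genes then included PPARA (−0.33, adjusted p = 0.0125), PPARGC1A (−1.17, 0.00237), PDK4 (−0.50, 8.15e-05), ACADS (−0.60, 2.91e-05) and ETFB (−0.27, 0.017), and the higher genes PPARG (0.32, 0.00789), ACADM (0.29, 0.028) and ETFA (0.19, 0.0429). OXCT1 lost its call without SP 3 days replicate 1 or 3 or SP 12 days replicate 1 or 2 (adjusted p up to 0.105), and ECH1 when control (3 days) replicate 1, SP 3 days replicate 2 or 3 or SP 12 days replicate 1 was left out (adjusted p as high as 0.127).
The effect of SP at 24 h was also tested against that at 3 days over all 18 libraries, each against its own control. It was larger at 24 h for ACOX2 (1.71 ± 0.26, adjusted p = 0.000962, edgeR), CPT1A (0.80 ± 0.23, 0.0498) and ECH1 (0.48 ± 0.13, 0.0393), and smaller for OXCT1 (−1.37 ± 0.28, 0.00714). These 3 and 1 of 32 are 9.38% and 3.12%, against 3.15% and 3.13% of the 18785 genes tested. DESeq2 gave 3 and 4 (9.38% and 12.5%), against 4.28% and 4.72% of all genes. The GC content and length correction gave 2 and 3 (6.25% and 9.38%), against 4.85% and 5.06%. The values of ACOX2 and OXCT1 held without any 1 library (adjusted p up to 0.00451 and 0.0304), while CPT1A lost the call without any of 15 libraries, all but control (24 h) replicate 3 and SP 3 h replicates 2 and 3 (up to 0.121). ECH1 lost it without any of 13, all but control (3 days) replicate 2, SP 3 days replicate 2, control (24 h) replicate 3, SP 12 days replicate 3 and SP 3 h replicate 3 (up to 0.12). With the GC content and length correction ECH1 was at 0.30 (adjusted p = 0.185), and ACADVL at −0.43 (0.0454) against −0.28 ± 0.12. Experiment and duration cannot be told apart in this test, since each time point belongs to 1 table.

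Another 135 genes of the same pathway (uptake and activation of fatty acids, carnitine handling, peroxisomal and ketone enzymes, thioesterases, PPAR partners and targets) were listed with the same comparisons. At 3 h 7 of the 107 tested were higher (6.54%) and 3 lower (2.8%). At 24 h these numbers were 23 (21.5%) and 11 (10.3%). Over 108 tested genes of the first table, 42 passed as higher at 3 days (38.9%) and 26 as lower (24.1%). The 12 days numbers were 42 (38.9%) and 23 (21.3%). Of all genes tested, 7.39% were higher and 4.11% lower at 3 h, and 16.8% and 12% at 24 h. At 3 days these shares were 25.2% and 23.3%, and at 12 days 26.4% and 23.4%. The PPAR partners and cofactors included 10 lower genes of 17 at 3 days, with 4 higher, and 9 lower with 3 higher at 12 days. That is 58.8% and 23.5% at 3 days and 52.9% and 17.6% at 12 days, beside 23.3% and 25.2%, and 23.4% and 26.4%, of all genes tested. At 24 h 2 of these 17 were lower and 1 higher (11.8% and 5.88%), beside 12% and 16.8%. The 3 h numbers were 1 lower and 0 higher (5.88% and 0.0%), beside 4.11% and 7.39%. The other PPAR targets included 12 higher and 4 lower of 24 at 3 days, beside 25.2% and 23.3% of all genes, and 10 and 4 at 12 days (41.7% and 16.7%), beside 26.4% and 23.4%.
CREB3L3, a liver transcription factor that acts with PPARα, had the largest rise of the list at 24 h among genes with a mean of at least 50 counts. It held 0.159, 0.106 and 0.0701 CPM in the control (24 h) and 4.21, 4.28 and 3.71 at SP 24 h, a log2 fold change of 5.20 ± 0.35 (adjusted p = 3.24e-05, edgeR). The control (24 h) level was near the lower limit of detection, so the size of this rise is uncertain. CREB3L3 was also higher at 3 days by 3.25 ± 0.24 and at 12 days by 2.27 ± 0.26, over control (3 days) libraries at 0.478, 0.564 and 0.591 CPM. PLIN4, a lipid droplet coat protein, was higher at 24 h by 2.45 ± 0.34, also over a low control (0.371, 0.528 and 0.491 CPM). SLC27A2, which imports and activates very long chains, was at 83.1, 92.4 and 90.5 CPM in the control (3 days), 261, 270.1 and 254 at SP 3 days and 243, 214 and 268 at SP 12 days, a rise of 1.56 ± 0.09 and 1.45 ± 0.09, with 557 bases of exon shared with ATP8B4. At 3 h PNPLA2, the main triglyceride lipase, was higher by 1.11 ± 0.25 (adjusted p = 0.0229) and PNPLA3, its relative, by 0.91 ± 0.18 (0.0125). The lower genes at 3 h were led by ACOT1 (−0.79 ± 0.19), the paralog of ACOT2, and AMACR (−0.56 ± 0.13), a racemase for branched chains whose exons share 2660 bases with a readthrough gene. At 24 h CROT (−1.05 ± 0.16), the peroxisomal carnitine transferase, and TMLHE (−0.89 ± 0.16), an enzyme of carnitine synthesis, led the falls. At 3 days the acetyltransferase CREBBP (fold change 0.501, adjusted p = 1.3e-07, edgeR) and the coactivator NCOA2 (−0.99 ± 0.10) fell most, and at 12 days HILPDA (−1.41 ± 0.10), an inhibitor of triglyceride lipolysis, and CREBBP (−1.11 ± 0.08). Exon bases are also shared with other genes by PNPLA2 (401), PNPLA3 (148), HILPDA (274), TMLHE (131) and PLIN4 (17).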

How the data were processed

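Per the labels and the study's methods, RNA of A549 cells was made into NEBNext libraries, sequenced as paired ends, aligned to GRCh38 with STAR and counted per Ensembl gene with featureCounts. The authors deposited raw counts, 2 tables of 9 libraries. Neither strandedness nor the rule for multi-mapping reads is given in the sources used here. For each table, edgeR 4.0.16 (R 4.3.3) filtered low genes with filterByExpr (minimum count 10), took TMM factors and fitted a robust quasi-likelihood model of the 3 groups. Benjamini-Hochberg adjustment covered every gene tested, and a gene passed at an adjusted p under 0.05. Values are TMM-scaled CPM, and fold changes are coefficients of the fit with their standard errors. The difference between the effects at 24 h and 3 days was fitted over all 18 libraries. DESeq2 1.42.0, other scalings, filters, blocks and leaving out libraries were tried as alternatives, as was removing trends with GC content and transcript length from the libraries (spline, 4 degrees of freedom), which for the test over 18 libraries was chosen after seeing the data. The fit was tested on simulated data.

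Every member is named, and those with a fold change of at least 1.5 and an adjusted p under 0.05 in a comparison with control are given in every library, with some others. Of the other pathway genes, the 2 largest rises and 2 largest falls with a mean of at least 50 counts in either group were named per comparison. The members and lists were chosen with earlier results of these data known. The main fits held the group alone, without the replicate number. A pairing by replicate number was considered for SP 24 h with control (24 h) alone. Residuals of same-numbered libraries correlated there at 0.17 to 0.50. Libraries with different numbers correlated there at −0.55 to 0.17. For SP 3 h the correlations were −0.59 to −0.03 for same-numbered libraries and −0.57 to 0.58 for the others. In the first table same-numbered libraries correlated with the control at −0.01 to 0.16. The labels give only replicate numbers, and these correlations do not establish a pairing.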

Additional observations from a re-analysis of the deposited data

Results flagged for a closer look

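Several differences between SP times, in level or in SP effect, were at least 2-fold and passed a direct test. ACOX2 was 1.74 ± 0.21 higher on the log2 scale at SP 24 h than at SP 3 h (adjusted p = 0.00104, edgeR), and its SP effect at 24 h exceeded that at 3 days by 1.71 ± 0.26 (adjusted p = 0.000962). All 3 SP 24 h libraries lay above the control, while all 3 SP 12 days libraries lay below it. PDK4 was 1.49 ± 0.32 higher at SP 24 h than at SP 3 h (adjusted p = 0.013), with every SP 24 h library above every SP 3 h library. The SP effect on OXCT1 at 24 h minus that at 3 days was −1.37 ± 0.28 (adjusted p = 0.00714). Its control level also differed between the tables, at 4.86 ± 0.0931 CPM in the control (24 h) and 2.40 ± 0.220 in the control (3 days) (SD, n = 3), and the tables were made from separate sets of libraries. The control level of ACOX2 differed too, at 2.22 ± 0.612 CPM in the control (24 h) and 5.64 ± 1.16 in the control (3 days). The part of the control levels in the differences of effect of OXCT1 and ACOX2 was not tested.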

How the results depend on the processing

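No passed log2 fold change of the 32 genes changed sign under any alternative run, among the values past the threshold in either setting. The numbers of genes that were higher and lower are given here where they moved by over 1.5 times. For SP 3 h, the 2 groups alone with the replicate block gave 0 higher (and 0 of all genes tested passed in that fit). Lower genes numbered 1, against 0, with DESeq2, upper-quartile scaling, a mean of at least 100 counts, or the GC content and length correction with the replicate block. Of all genes tested, 6.49%, 4.39%, 5.62% and 7.69% were lower in these fits, in that order, against 4.11%. For SP 24 h, the number of lower genes was 1 with upper-quartile scaling, with no filter or with the 2 groups alone, and 4 with the GC content and length correction with or without the block, against 2. For SP 3 days the number of lower genes was 2 with library totals or with the block, against 1. It was also 2 with the 2 groups alone, with or without the block. With the GC content and length correction it was 3, with or without the block. The lower share of all genes was 25.4% with library totals and 23.9% with the block, against 23.3%. It was 31.6% and 29.0% with the 2 groups alone, with and without the block, and 25.1% in both fits with the correction. For SP 12 days the number of lower genes was 3 with no filter, against 6, and the lower share of all genes 9.93%, against 23.4%. Between SP 24 h and SP 3 h, 6 genes were higher with no filter, against 10, and 5.94% of all genes, against 11.7%. The lower genes numbered 2 with DESeq2, and 1 with no filter or with the 2 groups alone with or without the block, against 0. They numbered 3 with the GC content and length correction and 4 with it and the block. In the same order, the lower share of all genes was 10.4%, 3.29%, 9.49% (with the block), 11.8% (without it), 12.4% and 14.6%, against 8.4%. Between SP 12 days and SP 3 days, 0 were higher at a mean of at least 100 counts or with the 2 groups alone and the block, against 1. Of all genes, 5.21% and 2.7% were higher in those fits, against 4.46%. Only 1 was lower with the 2 groups alone and the block or with the GC content and length correction, against 2. Of all genes, 2.09% and 3.94% were lower there, against 3.65%. For the effect at 24 h minus that at 3 days, lower genes numbered 4 with DESeq2 and 3 with the GC content and length correction, against 1. Of all genes, 4.72% and 5.06% were lower in these fits, against 3.13%. At an adjusted p under 0.0001 and 2-fold (edgeR), 2 genes were higher at 3 days and 3 at 12 days, and 0 were higher in the other comparisons and 0 lower in any. The cause of these moves was not tested, apart from the stricter thresholds. For SP 24 h, the main counts of 9 higher and 2 lower came from a fit of the group alone. The replicate number entered as a block only in alternative fits. The 2 groups alone with the block gave 12 higher and 2 lower there (37.5% and 6.25%). Of all genes tested, 20.1% were higher and 18.2% lower in that fit. The calls it changed stand beside those genes (PPARD, PPARGC1A, ACADS). Elsewhere the libraries share only a number, and the block moved no further count of the 32 genes by over 1.5 times. Over all genes, upper-quartile scaling gave 3208 higher and 1480 lower at 24 h, against 2922 and 2087, and 2474 and 853 between SP 24 h and SP 3 h, against 2038 and 1459.

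Leaving out each library gave 2 to 4 higher and 0 lower genes at 3 h, 8 to 10 and 1 to 3 at 24 h, 11 to 16 and 1 to 2 at 3 days, and 7 to 13 and 3 to 7 at 12 days. It gave 4 to 10 and 0 to 2 between SP 24 h and SP 3 h, 0 to 4 and 0 to 7 between SP 12 days and SP 3 days, and 1 to 3 and 1 to 2 for the difference of effects. Over all genes the same fits gave 3.49% to 8.45% higher and 1.8% to 3.92% lower at 3 h. The shares were 10.6% to 19.7% and 5.22% to 17.3% at 24 h, and 21.6% to 28.6% and 18.5% to 29.0% at 3 days. At 12 days they were 22.4% to 27.3% and 19.4% to 27.6%. Between SP 24 h and SP 3 h they were 6.56% to 13.5% and 3.17% to 11.2%. Between SP 12 days and SP 3 days they were 1.65% to 13.6% and 1.39% to 14.5%. For the difference of effects they were 1.61% to 6.8% and 1.38% to 3.77%. The 24 h count of lower genes fell to 1 without control (24 h) replicate 1, SP 3 h replicate 1 or 2, or any SP 24 h replicate, and the 12 days count to 3 without control (3 days) replicate 3. The 3 days count rose to 2 without control (3 days) replicate 3, SP 3 days replicate 2 or SP 12 days replicate 3. For the difference of effects, the lower genes numbered 2 without control (24 h) replicate 2, SP 12 days replicate 3 or SP 3 h replicate 3. With 3 libraries per group, standard errors on the log2 scale had a median of 0.13 (first table) and 0.20 (second table), so small changes were less detectable at 3 h and 24 h.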
